A study of Mus musculus with 2 samples.

Results

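The start site of Inhbb was used as a viewpoint on a contact map of mouse chromosome 1: all contacts of the 1 bin of 10 kb that holds this start were read out against every other bin of the well-covered map. The bin spans chr1:121310001-121320000 in the mm9 build, and it was set against 421 other bins from position 120180001 up, of 475 bins in the whole map. The map holds 25 protein-coding genes, of which Inhbb is 1. Inhbb (ENSMUSG00000037035.5) lies on the minus strand at chr1:121312042-121318825 and has 2 exons in a gene of 6784 bp. Its start at 121318825 is 1175 bp from the upper edge of the bin. The whole gene lies inside the bin, so contacts of its promoter, its first exon (121317204 to 121318825) and its second exon (121312042 to 121314674) fall into the same 10 kb value. On the lower side the gap to Gli2 is 361.845 kb and holds no protein-coding gene of GENCODE M1. It is called gene-free below in that sense, and genes of other types were not listed. On the higher side the gap to Ralb is 48.056 kb.

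Contacts were measured by capture Hi-C in wild-type forelimbs and hindlimbs of embryonic day 10.5 mouse embryos, without any mutant, treatment or other time point. Limbs were made into a cell suspension with trypsin and fixed in 2% PFA, chromatin was cut with DpnII and religated, and the library was enriched with custom SureSelect probes. The labels give 2 libraries, both titled Rep2, and the deposited tables hold 1 map, named Rep2 and merged, with no column per library. It was taken here as the map of both libraries, which the labels do not state. The labels give neither strain nor number of embryos. Forelimb, hindlimb and all cell types of the bud are mixed, and a contact map carries no expression, so the tissue was not checked against marker genes. With 1 map there is no spread between samples. All intervals are 95% intervals of counting error, exact Poisson for counts and Wilson for shares, and no p-values were computed. Read pairs carry no molecular identifiers, so copies of 1 molecule may have been counted more than once.

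Inhbb encodes the beta-B subunit of activin B and inhibin B, secreted dimers of the TGF-beta superfamily. Activins bind serine/threonine kinase receptors that signal through SMAD proteins, and inhibins oppose them. Gli2, the neighbour on the lower side, encodes a zinc-finger transcription factor of the Hedgehog pathway, which patterns the limb bud. Ralb, the neighbour on the higher side, encodes a Ras-like small GTPase. En1, farther up, encodes a homeobox transcription factor of the ventral limb ectoderm. Developmental genes often lie beside long gene-free stretches that can hold distal enhancers, and contact domains limit which stretches a promoter meets most often. CTCF, a zinc-finger protein, binds many domain boundaries in an oriented motif.

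The stretch just upstream of the start is shown because every value below is read from the bin that holds it. It is the 250 bases at chr1:121318826-121319075 on the minus strand of mm9, written 5′ to 3′ along the gene, with the DpnII recognition site in capitals.

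Inhbb upstream stretch: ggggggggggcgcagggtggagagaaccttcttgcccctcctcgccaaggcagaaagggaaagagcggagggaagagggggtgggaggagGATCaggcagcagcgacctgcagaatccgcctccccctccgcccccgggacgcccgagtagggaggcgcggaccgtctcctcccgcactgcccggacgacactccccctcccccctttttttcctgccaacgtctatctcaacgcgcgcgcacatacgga

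These bases are 68% G or C, hold 21 CpG dinucleotides and 1 DpnII site. The RefSeq start on GRCm38.p6, carried over by matching its promoter sequence to mm9, differed from the GENCODE start by 0 bp. The DpnII fragment with the start runs between sites at 121318006 and 121318982 and is 976 bp long. The bin holds 27 DpnII sites, against a median of 25 over the bins used, and its G and C content was 57.0% against a median of 44.5%.

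Matches to the 12-base CTCF core consensus (5 of its positions allow more than 1 letter) were searched on both strands, because the strongest far partners of Inhbb lie next to a boundary. The map held 32 matches, in 31 of 475 bins (6.53%), and the Inhbb bin held none. The following 4 matches lie in the gene-free stretch. Each is written along its own strand with the core in capitals.

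chr1:120971654-120971673, plus: ttctCCACTAGGGGGCccca
chr1:120980421-120980440, minus: tacaCCACCAGAGGGCagaa
chr1:120984295-120984314, plus: ttatCCACCAGGTGGCgatc
chr1:121242120-121242139, plus: gctgCCACCAGGTGGCtccc

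The second and the third match lie in 1 bin, chr1:120980001-120990000, which was the only bin of the map with more than 1 match. A letter match is not a measured binding site, and CTCF occupancy was not measured in this map.

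The map held 6484654 read pairs over chr1:119650001-124400000. The Inhbb bin held 26658 of these (interval 26338.9 to 26980), against a median of 23885.5 per bin. It ranked 169 of 422 bins, so the viewpoint was covered at an ordinary depth. Within the bin itself 6099 read pairs (22.9%) joined positions of the bin, and 20559 joined it to other bins. Of these, 20508 fell in the bins used. Below position 120180001 the median bin held 886 read pairs, and these 53 bins were left out. The bins used reach 1.13 Mb below the Inhbb bin and 3.08 Mb above it.

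Contacts of the Inhbb bin leaned towards lower coordinates, the side of Gli2. Of 20508 read pairs, 12524 joined Inhbb to lower bins, a share of 61.1% (60.4 to 61.7), and 7984 joined it to higher bins, 38.9% (38.3 to 39.6). Distance and the coverage of each bin would put 51.1% on the higher side, because the map is longer there. The observed share was 0.762 of that (0.749 to 0.775). Within 1 Mb on either side, where both arms are equally long, 35.5% (34.9 to 36.2) of the read pairs lay above, against 47.9% expected. Here and below, the expected number for a bin pair is the mean balanced value at that distance times the coverage factors of both bins.

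**Figure D1:**
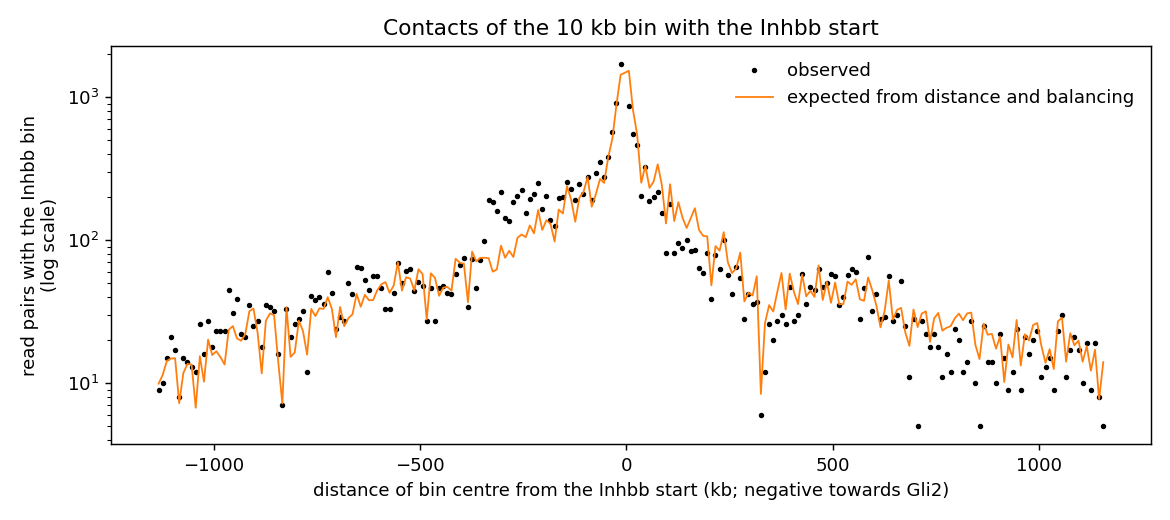
Read pairs between the Inhbb bin and each 10 kb bin around it (points) and the number expected from distance and coverage (line), against the distance from the Inhbb start in kb, on a log axis. Over the gene-free stretch on the lower side the points run above the line, and over Ralb and Epb4.1l5 on the higher side they run below it.

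Next to the gene the difference lay mainly in low values above it. The bin next below, chr1:121300001-121310000, shared 1708 read pairs with Inhbb, against 1435 expected (observed over expected 1.19). The bin next above, chr1:121320001-121330000, shared 869 against 1533 (0.57), and the bin after it 549 against 814 (0.67). At 5 kb, the first bins above the bin with the start gave 0.609 and 0.478. The first bin below it, which holds exon 2, gave 0.911 (0.848 to 0.977), and the next ones down 1.02, 1.04 and 0.94. The excess of 1.19 just below Inhbb at 10 kb was therefore not seen from the 5 kb bin with the start. At 20 to 800 kb, summed observed over expected was 1.24 below and 0.778 above, a ratio of 1.60 (1.55 to 1.65) between the sides.

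The sides differed most at intermediate distance. From 20 to 50 kb the lower side gave 1.04 (0.997 to 1.09), an interval that holds 1, and the higher side 0.753. From 100 to 200 kb the values were 1.2 below and 0.614 (0.575 to 0.655) above. From 200 to 400 kb the lower side reached 1.7 (1.64 to 1.76), with 0.769 above. From 400 to 800 kb the sides were close to expectation, at 1.06 below and 0.978 (0.929 to 1.03) above. Beyond 800 kb they stood at 1.24 and 0.81. This last range runs to the end of the bins used, with 34 bins below and 229 above, so it covers unlike distances.

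**Figure D2:**
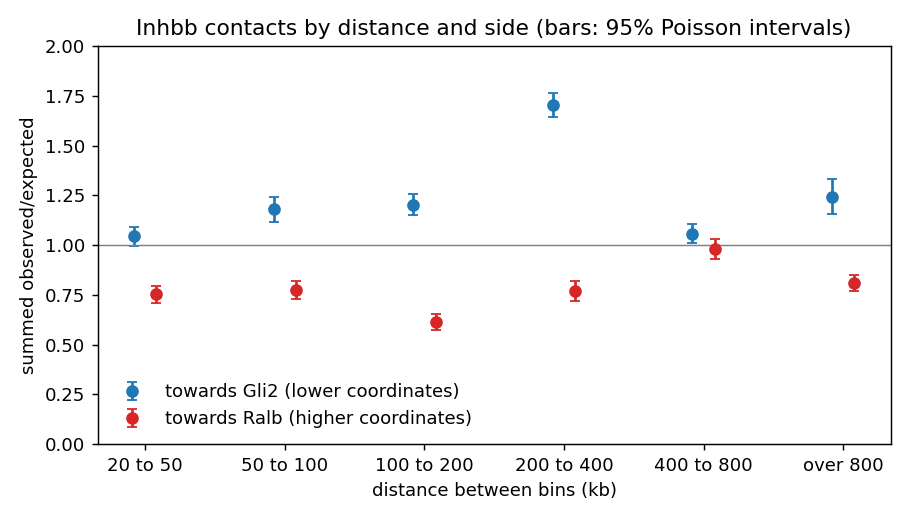
Summed observed over expected read pairs of the Inhbb bin in 6 ranges of distance in kb, for lower and for higher coordinates, with 95% Poisson intervals. The lower side is above the higher side in each range, and the gap is widest at 200 to 400 kb, with 1.7 below against 0.769 above. The last range reaches farther on the higher side than on the lower.

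The gene-free stretch between Gli2 and Inhbb was met more often than expected along nearly its whole length. Its 35 bins, from 120960001 to 121310000, held 9752 read pairs, 47.6% (46.9 to 48.2) of all contacts of the Inhbb bin with other bins. The expected share was 36.5%, and the observed share was 1.30 times that (1.28 to 1.32). Observed over expected was above 1 in 32 of the 35 bins, and the interval was above 1 in 26 of them. Over all bin pairs at 10 to 350 kb, 26.1% had an interval above 1. The median of the 35 bins was 1.31, the lowest 0.97 and the highest 3.09.

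Within the stretch, observed over expected rose with distance from Inhbb and was level over the last pieces. In pieces of 50 kb, starting at Inhbb and going towards Gli2, it was 1.11, 1.16, 1.22, 1.28, 1.68, 2.05 and 2.03. The bins nearest Inhbb gave the most read pairs (3849 in the first piece), where most were expected, and the bins farthest from it exceeded expectation most. At the far end the excess stopped abruptly. The bin at 120980001 stood at 2.55, the next towards Gli2, at 120970001, at 1.31, and the one after it, at 120960001, at 0.97 with 73 read pairs against 75.3 expected. The Gli2 start lies in the following bin, and Gli2 extends from there to lower coordinates.

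The strongest partners of Inhbb at 100 kb or more all lay in this far end of the stretch. A partner was called where at least 10 read pairs were seen and the lower bound of observed over expected exceeded 1.5. Of 236 bins tested 9 were called (3.81%), against 5.88% of all bin pairs of the map. Read against that background, the number of partners was not high. All 9 lay on the lower side, between 120980001 and 121100000. The median bin had 8 called partners, with a range from 0 to 69.

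The first partner, chr1:120990001-121000000, lies 320 kb from the Inhbb bin and 39.8 kb from Gli2. It shared 186 read pairs with Inhbb where 60.2 were expected, an observed over expected of 3.09 (2.66 to 3.57). The bin at 120980001, which holds the paired CTCF core matches printed above, shared 191 read pairs (2.55, 2.20 to 2.94) at 330 kb. The bin at 121000001 shared 159 read pairs (2.55, 2.17 to 2.97) at 310 kb. The bin at 121040001 shared 185 (2.43, 2.09 to 2.80) at 270 kb, and the bin at 121010001 shared 216 (2.36, 2.06 to 2.70) at 300 kb. None of these 5 bins overlaps a protein-coding gene, and Gli2 is the nearest such gene to each.

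**Figure D3:**
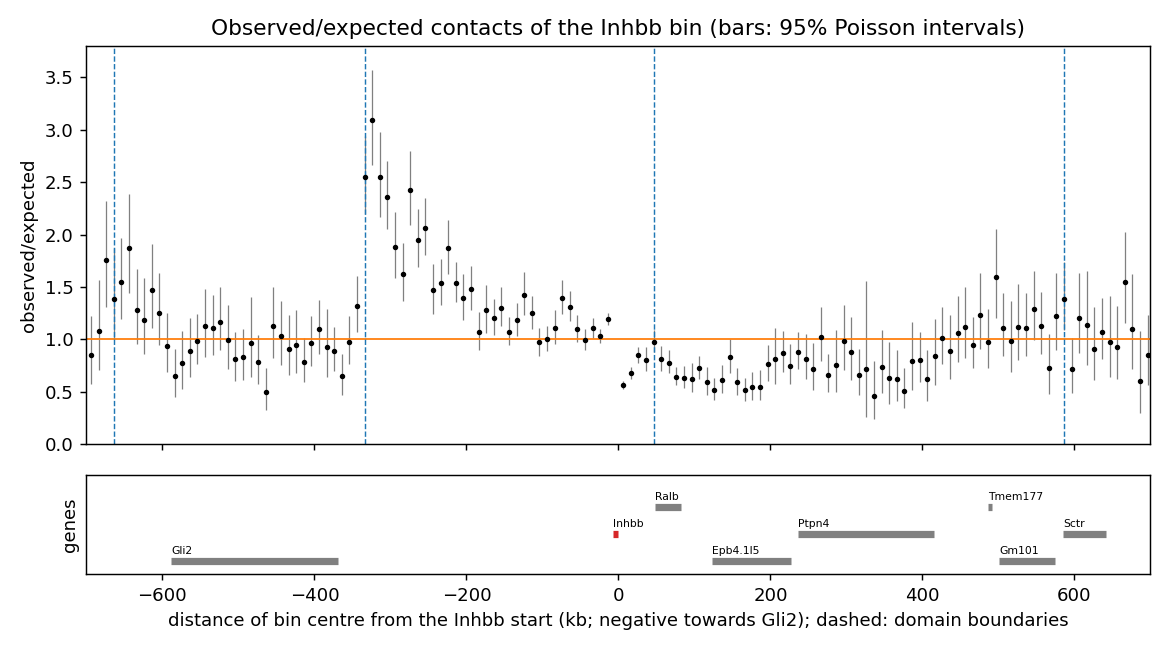
Observed over expected read pairs of the Inhbb bin with each 10 kb bin, against distance from the Inhbb start in kb, with 95% Poisson intervals, domain boundaries as dashed lines and genes drawn below. The highest values, up to 3.09, lie at the end of the gene-free stretch nearest Gli2, just inside a boundary, and the bins just above Inhbb lie below 1.

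The partner signal was spread over both bins involved. Each 10 kb value is the sum of 4 pairs of 5 kb bins, and the largest of these held 26.7% to 37.1% of the read pairs of the 5 partners. Taken from the 5 kb bin with the start alone, observed over expected with the same 5 partners was 3.21, 3.2, 2.97, 2.69 and 2.23 in the order given. At 5 kb the highest pair was chr1:120985001-120990000, with 49 read pairs and 4.05 (3 to 5.36), followed by its neighbour at 120990001, with 54 read pairs and 3.81 (2.86 to 4.97). At that bin size 16 of 163 bins tested were called, 14 of them on the lower side, against 8.18% of all 5 kb bin pairs.

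The order of partners depended on the measure. By plain read pairs at 100 kb or more the first was chr1:121170001-121180000, with 256 read pairs, but its observed over expected was only 1.07 at a distance of 140 kb. By balanced value the bin at 121190001 came first (180) and the bin at 120990001 next (176). The bin that came nearest to being called without lying in the stretch was chr1:120670001-120680000, 640 kb below Inhbb and past Gli2, with 1.87 (1.44 to 2.39). The first partner of Inhbb was of moderate strength for this map. Its lower bound of 2.66 was exceeded by the first partner of 130 of 415 bins (31.3%), where the median was 2.22 and the highest 17.9.

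The first 5 called bins next to each other formed a block, chr1:120980001-121030000, which was defined from these values. Inhbb shared 894 read pairs with it where 364 were expected, 2.45 (2.29 to 2.62). The block was next read from each bin between 121120001 and 121440000, a window around Inhbb. Among these 32 bins Inhbb ranked 6. The highest was chr1:121350001-121360000, between Inhbb and Ralb, with 3.58 (3.32 to 3.85). The bins at 121370001 (3.43), 121360001 (3.27) and 121380001 (2.95), all in Ralb, and the bin at 121340001 (2.65) also stood above Inhbb. The direct neighbours of Inhbb gave 2.34 below and 2.23 above. The contact with this block was therefore not highest at the Inhbb start, but rose past Inhbb towards Ralb. At 5 kb the bin with the start gave 2.60 (2.35 to 2.88), the bin with exon 2 gave 2.27, and the bin at 121350001 gave 3.94.

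**Figure D4:**
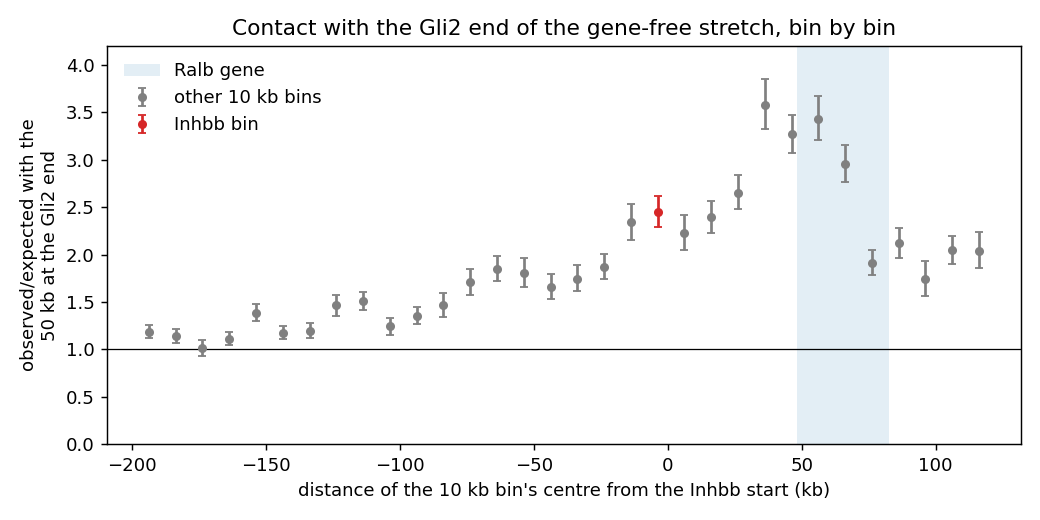
Observed over expected read pairs with the block at 120980001 to 121030000, read from each 10 kb bin, against that bin's distance from the Inhbb start in kb, with 95% Poisson intervals. The Inhbb bin, at 2.45, lies on a rise that peaks at 3.58 between Inhbb and Ralb.

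The edges of the domain around Inhbb lay near the same places. The insulation score, the log2 mean balanced contact across a bin within 150 kb relative to the median bin, had local minima at chr1:120980001-120990000 (-1.11), 29.8 kb from Gli2, and at chr1:121360001-121370000 (-0.58), in Ralb. The Inhbb bin itself scored -0.34 and was not a minimum called as a boundary. Inhbb thus lay inside a domain of bins from 120990001 to 121360000, near its upper edge. The edges were placed from balanced values of this same map. The shares per domain that follow are therefore not independent of them, and their intervals cover counting error only. The 36 other bins of this domain held 11476 read pairs, 56.0% (55.3 to 56.6) of its contacts, against 50.6% expected. The next domain below, from 120660001 to 120980000, held 8.22%, 1.01 times the expected share. The next domain above, from 121370001 to 121900000, held 16.8% (16.3 to 17.3) against 22.0% expected, 0.763 times. Low values began before the called boundary in Ralb. The position of this edge is not sharp, because the score was -0.571 in the bin at 121350001 and -0.576 at the minimum. Inside the domain of Inhbb as called, the bins above it gave 0.57, 0.67, 0.85 and 0.80, going up from 121320001.

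Ralb, the nearest protein-coding gene, met Inhbb less than distance and coverage predict. Its 5 bins, from 121360001 to 121410000, held 1086 read pairs, 5.30% (5.00 to 5.61) of the contacts of Inhbb, against 6.77% expected (0.783, 0.738 to 0.829). In 4 of the 5 bins the interval lay below 1, where 33.6% of all bin pairs at 10 to 350 kb had such an interval. The bins ranged from 0.635 to 0.979, and the lowest was the bin with the Ralb start, which shared 154 read pairs with Inhbb against 242 expected (0.635, 0.539 to 0.744). Ralb was not the only low place. Of the 20 bins in the 200 kb above Inhbb, none exceeded 1 and 18 had an interval below 1, with a median of 0.639. In the 200 kb below, 18 of 20 exceeded 1 and 12 had an interval above 1, with a median of 1.19. Over all bin pairs at 10 to 350 kb, 26.1% had an interval above 1 and 33.6% below. That range includes pairs farther apart, with fewer read pairs expected, than the Ralb bins and these windows. Shares at their own distances were not computed.

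The depletion went on through Epb4.1l5, which encodes a FERM-domain protein of the band-4.1 family and stood at 0.639 (0.596 to 0.683) over its whole length. Ptpn4, a protein tyrosine phosphatase gene, stood at 0.758. A bin at 100 kb or more was called depleted where at least 10 read pairs were expected and the upper bound lay below 1 over 1.5. Only 3 of 238 bins met this (1.26%), against 6.31% of all bin pairs. They were the bins at 121440001 (0.52) and 121480001 (0.513), both in Epb4.1l5, and the bin at 122020001 (0.203, 5 read pairs against 24.7 expected) in 3110009E18Rik. Farther up the genes went both ways. Gm101 stood at 1.14 (1.04 to 1.25), and the interval of Sctr, the secretin receptor gene, held 1 (1.07, 0.95 to 1.2). Steap3, a metalloreductase gene, stood at 0.609. Insig2, which encodes a sterol-regulated membrane protein of the endoplasmic reticulum, stood at 1.71 (1.11 to 2.53) with 25 read pairs, and Ccdc93 at 1.47 (1.16 to 1.85) with 74.

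Gli2 was met slightly less often than expected in the main setting. Its 23 bins held 1128 read pairs, 5.50% (5.20 to 5.82) of the contacts of Inhbb, against 6.05% expected (0.91, 0.86 to 0.963). No Gli2 bin had an interval above 1 and 3 had one below 1, with a median of 0.924. Over all bin pairs at 360 to 580 kb, the distances of these bins, 18.3% had an interval above 1 and 33.6% below. With 5 kb balanced values the ratio was 1.01, and with an expectation from distance alone 1.03, so its side of 1 depends on the scaling. The bin with the Gli2 start was lower, with 46 read pairs against 71.2 (0.646, 0.473 to 0.861). Beyond Gli2 the gap up to Tcfcp2l1 stood at 1.32 (1.22 to 1.43), Tcfcp2l1, a transcription factor gene, at 1.16, and Clasp1, which encodes a microtubule-binding protein, at 1.26 (1.16 to 1.36).

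Contacts of Inhbb with other gene starts were few and mixed. The 24 other protein-coding starts lie in 23 bins, 23 of the genes at 100 kb or more. The interval lay above 1 for 4 genes, below 1 for 4, and held 1 for 16. Over all pairs of bins with a gene start, 31.2% had an interval above 1 and 12% below. The highest at 100 kb or more were 2900060B14Rik (45 read pairs, 1.90, 1.39 to 2.55), Gm11102 (39 read pairs, 1.90) and Clasp1 (26 read pairs, 1.69, 1.10 to 2.47), at 940 to 1030 kb below. 2900060B14Rik and Gm11102 both lie inside the Clasp1 gene, so these starts come from the same gene region. Sctr was the other start above 1, with 76 read pairs (1.39, 1.09 to 1.73). Below 1 were Ralb, Gli2, Epb4.1l5 (0.746) and Steap3 (0.54). Htr5b gave the lowest value, 0.196, but from 1 read pair against 5.10 expected, so that a difference was not detectable at this depth. The En1 start, 1180 kb above, shared 14 read pairs with Inhbb against 17.1 expected (0.818, 0.447 to 1.37), an interval that holds 1. The whole domain with the En1 start stood at 0.824 (0.757 to 0.895).

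**Figure D5:**
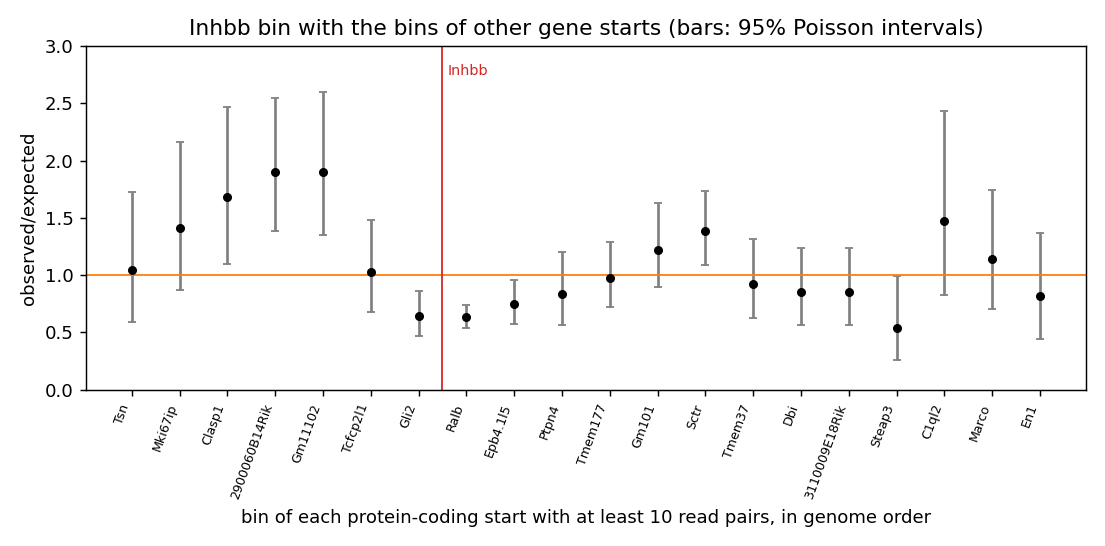
Observed over expected read pairs between the Inhbb bin and the bin of each other protein-coding start with at least 10 read pairs, in genome order, with 95% Poisson intervals and a vertical line at the place of Inhbb. The starts that flank Inhbb, Gli2 at 0.646 and Ralb at 0.635, lie below 1, and of the starts beyond Gli2 3 have an interval above 1 (Clasp1, 2900060B14Rik and Gm11102). 2900060B14Rik and Gm11102 lie inside the Clasp1 gene.

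The lean of Inhbb to lower coordinates was among the larger leans to that side in the map. Within 1 Mb, 35.5% of the Inhbb read pairs lay above it against 47.9% expected, a difference of -12.4 percentage points. Among 221 bins with 1 Mb of map on both sides this ranked 11 from the lowest, where the median was -1.44 and the range -18.3 to 24.7. Of the 15 bins with a gene start among them Inhbb had the lowest difference, followed by Tmem177 (-11.3). Ralb, only 90 kb away, had 45.6% above against 45.5% expected. En1 leaned up (76.8% against 52.1%). Gli2 leaned the same way as Inhbb (42.6% against 51.1%), but it was not among the ranked bins. Less than 1 Mb of the bins used lies below Gli2, so its arms are of unequal length. The same rule called 19 far partners for Gli2, 11 for Ralb and 57 for En1, against 9 for Inhbb. These comparisons are between single bins of 1 map and were not tested.

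The first far partner of the Ralb start was also a called partner of Inhbb. It was the bin at 120980001 (196 read pairs, 2.77, 2.40 to 3.19), 420 kb from the Ralb bin and next to the first partner of Inhbb. The first partner of Gli2 was the bin at 120670001 (3.8), on its other side. Over bins at 100 kb or more from both, log2 observed over expected of Inhbb correlated most with that of Ralb (Pearson r = 0.51, 229 bins), Tmem177 (0.42, 200 bins) and Epb4.1l5 (0.41, 201 bins), and the correlation with Gli2 and with En1 was 0.12. These are correlations across bins of 1 map. The profiles share libraries, partner bins and coverage factors, and neighbouring bins are not independent.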

How the data were processed

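Per the labels' protocols, capture Hi-C libraries were made with DpnII. Bowtie2 2.3.4.1, Juicer 1.7.6, SAMtools and mm9 are listed in the submitters' processing notes, without their roles. The deposited file names carry HiCUP, a mapping quality of 30 and 50 bp. The authors deposited raw counts of read pairs per bin pair, not normalized, and a balanced contact signal named KR, whose row sums were constant at 22062.3 at 10 kb. Pairs not listed were taken as 0.

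The main analysis used 10 kb raw counts. Balancing factors were recovered as those for which the raw count equals KR times both factors. Expected counts were the mean KR per distance over bins from 120180001 up, times both factors. At 5 kb, 7 bins without KR were left out. Domain boundaries were minima of the insulation score with a prominence of at least 0.2. Shares of contacts leave out pairs inside the bin. Likeness used log2 of observed plus 1 over expected plus 1, over bins with an expected count of at least 10. Alternatives changed bin size, unit, expectation, thresholds and bins near the viewpoint.

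The named genes were Inhbb, Gli2, Ralb and En1, the 5 partners with the highest lower bound, the 3 highest and 3 lowest gene starts at 100 kb or more, the 3 most alike starts, and genes of domains the profile crosses. The viewpoint, its regions and these lists were chosen with earlier results of these data known. Genes were the protein-coding genes of GENCODE M1 on NCBIM37, the assembly of mm9. The calling rules were run on Poisson counts simulated from distance and balancing factors, with known changes put in. The simulation held no domains, so it does not measure false calls in the real map. Python 3.11.15, numpy 2.4.6 and scipy 1.17.1 were used.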

Additional observations from a re-analysis of the deposited data

How the results depend on the processing

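The map is 1 merged table, so leaving out a library was not run. No paired analysis was possible because the deposited columns carry no replicate. Of the shares over expected share at higher coordinates, with the gene-free stretch, Ralb and Gli2 and within the domain, only that with Gli2 changed side of 1. The shares with the domains next to it were not run under alternatives.

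The share at higher coordinates was 40.3% with 1 more bin on each side in the viewpoint, 40.4% with 10 kb KR values, 41.4% with 5 kb KR values, 35.5% within 1 Mb and 39.7% without the adjacent bins. Over its expected share it was 0.789 with the wider viewpoint, 0.786 with 5 kb KR values, 0.737 with distance alone, 0.788 with 5 kb counts, 0.742 within 1 Mb and 0.778 without the adjacent bins.

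For the gene-free stretch the share was 44.4% with the wider viewpoint, 46.7% with 10 kb KR values, 38.9% with 5 kb KR values, 39.3% with 5 kb counts, 51.0% within 1 Mb and 44.9% without the adjacent bins. Over expectation it was 1.27 with the wider viewpoint, 1.34 with distance alone and 1.27 with the whole map as expectation. With 5 kb bins it was 1.31 for counts and 1.32 for KR values. At that bin size the bin with exon 2 counted among the other bins, outside the stretch.

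The Ralb share was 6.16%, 4.73%, 3.69%, 4.04%, 5.68% and 6.06% under the same 6 settings, and over expectation 0.838 with 5 kb KR values and 0.917 with distance alone. The Gli2 share was 6.32%, 4.85%, 4.73%, 5.11%, 5.90% and 6.29%, and over expectation 1.01 with 5 kb KR values, 1.03 with distance alone and 0.964 with 5 kb counts. The domain share was 50.4%, 56.9%, 57.7%, 57.5%, 60.1% and 49.6%. Over expectation it was 1.14 with the wider viewpoint, 1.09 with 10 kb and 1.04 with 5 kb KR values, 1.08 with distance alone, 1.07 with the whole map, 1.05 with 5 kb counts and 1.17 without the adjacent bins.

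Called partners numbered 20 with a bound of 1.2, 5 with 2, 16 with 5 kb bins, 14 with the median KR per distance and 25 with distance alone, and depleted bins 17, 1, 1 (5 kb) and 10 (distance alone). Apart from the main rules, the share over all bin pairs was computed only for partners called at 5 kb (8.18%). The other counts have no such share beside them and cannot be read as particular to Inhbb. All 9 partners were called with the bound of 1.2, the median KR and distance alone. Of the depleted bins 1 of 3 was shared with distance alone. Gene starts with an interval below 1 fell from 4 to 1 with the median KR. The ratio between the sides was 1.54 at 5 kb and 1.80 with distance alone. The bin total was 20559 without pairs inside the bin and 10776 in the 5 kb bin with the start. The 5 named partners kept observed over expected between 2.02 and 3.64 in 25 alternative values, 19 of them inside their interval. The causes of these shifts were not tested.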
